A study of Mus musculus with 49 samples.

Results

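Adult hepatocytes were cultured into dedifferentiated hepatocytes (dediHeps), and the transcripts of the other cell types of the liver were followed through these cultures with 34 genes chosen by name. They comprise 12 genes of macrophages, 5 of leukocytes in general and of MHC class II, 10 of endothelial cells and 7 of stellate cells. All 34 were found by their Ensembl identifier among the 46078 rows of the table of unique molecular identifier (UMI) counts, and Cd3e, a T cell receptor component, had a count of 0 in all 49 libraries.

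The liver lobule holds hepatocytes and a non-parenchymal fraction. Kupffer cells are the resident macrophages of the sinusoids and take up particles and pathogens from portal blood. Liver sinusoidal endothelial cells are fenestrated and act as scavengers, and stellate cells store vitamin A in the healthy liver and become contractile, matrix-producing cells when activated. Hepatocyte preparations made by collagenase digestion commonly carry some of these cells, or fragments of them, along.

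The 49 libraries cover 16 conditions, and all cells were labelled wild type and C57BL/6J. Hepatocytes came from mice 10 weeks old and were depleted of non-parenchymal and blood cells by repeated centrifugation, and they were taken fresh (FH, n = 3) or after 3 h, 1, 2, 4, 7 or 14 days of monolayer culture with 20 ng/mL EGF (n = 3 each). No sort or marker gate is described for these cultures. Other 7-day cultures received 0.3 µM verteporfin, an inhibitor of the transcriptional coactivator Yap, or the solvent DMSO (n = 2 each). Passaged dediHeps were kept as a monolayer (n = 5), aggregated in 3D culture (n = 3), grown as spherical organoids (dediHep-SOs, n = 3) or, after transduction with the intestinal transcription factor Cdx2, as budding organoids (dediHep-BOs, n = 3). Chemically induced liver progenitors (CLiPs, n = 3) are cultures of hepatocytes, also from mice 10 weeks old, reprogrammed with 3 small molecules, Y-27632, A-83-01 and CHIR99021. Spherical organoids of fetal intestinal progenitor cells (FIPC-SOs, n = 3) came from the gut of embryos. Budding organoids of adult intestinal stem cells (ISC-BOs, n = 4) came from the gut of adult mice 10 weeks old. Both kinds of gut organoid hold no liver cells by label. Labels do not say which libraries of the time course share an animal, so p-values measure the spread between these libraries.

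The total count of a library was between 861047 and 3872936 (median 1976760). Levels are given as raw UMI counts and as CPM, that is, counts relative to the library total, scaled with TMM factors over all 49 libraries. These factors were 0.590 to 0.678 in FH and at 3 h and 0.909 to 1.27 elsewhere, so that scaled CPM are higher than CPM of the library total in FH and at 3 h. A count of 3 in a library, the floor used here, is 0.630 to 4.10 CPM and covers counting error only. Alb, the reference gene of hepatocytes, reached 3607 to 3771 counts in FH, close to the ceiling of 4096 that UMIs of 6 bases allow, whereas no member exceeded 2105 counts. In these bulk samples fewer cells of a type and less RNA per cell cannot be told apart.

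Lyz1 and Lyz2, neighbouring lysozyme genes on the minus strand of chromosome 10, are shown first because their coding sequences are nearly alike. Lyz2 (117277331 to 117282321, GRCm38) is the lysozyme of macrophages and a member, and Lyz1 (117287797 to 117292868) is the lysozyme of Paneth cells in the gut. The last 120 coding bases of each, from GENCODE M21, are printed 5′ to 3′ with the 2 differing bases in capitals. They lie in 2 exons, at 117278643 to 117278698 and 117278124 to 117278187 for Lyz2 and at 117289119 to 117289174 and 117288586 to 117288649 for Lyz1.
Lyz2: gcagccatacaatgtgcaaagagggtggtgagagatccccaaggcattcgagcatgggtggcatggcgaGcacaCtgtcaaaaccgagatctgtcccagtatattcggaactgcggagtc
Lyz1: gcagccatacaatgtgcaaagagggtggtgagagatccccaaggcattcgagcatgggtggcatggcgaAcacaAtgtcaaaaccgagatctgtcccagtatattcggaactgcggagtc
The 2 coding sequences differ at 22 of 444 bases, an identity of 95.0%. Of the 351 windows of 50 bases in the last 400 bases of the Lyz2 transcript, where CEL-seq2 reads lie, 62 (17.7%) also occur in the Lyz1 transcript. The other windows do not, and the coding bases printed above lie upstream of that region. Counts of the pair are therefore uncertain, to an extent that was not measured, wherever 1 of the genes is abundant.

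C1qa, C1qb and C1qc encode the 3 chains of complement C1q, which Kupffer cells make, and lie side by side on the minus strand of chromosome 4 between 136880129 and 136898803 (GRCm38). The 250 bases before the RefSeq transcription start are printed for C1qb (chr4:136886201-136886450) and C1qc (chr4:136892915-136893164), 2 members that both went from 18 to 88 counts in FH to at most 3 at 3 h, from RefSeq promoters on GRCm38.p6. Part of the C1qc window lies within the span of that gene in GENCODE M21, which ends at 136893065. Capitals mark GAGGAA or its complement TTCCTC, the letters of a core site of PU.1, the factor that specifies macrophages.
C1qb: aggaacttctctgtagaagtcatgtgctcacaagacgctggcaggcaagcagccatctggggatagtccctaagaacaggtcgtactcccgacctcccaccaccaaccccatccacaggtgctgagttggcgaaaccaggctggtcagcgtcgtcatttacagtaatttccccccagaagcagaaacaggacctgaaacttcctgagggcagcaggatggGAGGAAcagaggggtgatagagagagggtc
C1qc: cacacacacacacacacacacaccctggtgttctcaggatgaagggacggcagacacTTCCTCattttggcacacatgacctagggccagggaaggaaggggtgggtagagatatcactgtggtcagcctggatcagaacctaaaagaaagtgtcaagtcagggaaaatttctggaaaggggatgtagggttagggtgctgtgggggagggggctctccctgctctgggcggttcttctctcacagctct
These letters, searched on both strands in 300-base windows, were present in 6 of the 9 macrophage windows in the table, those of C1qb, C1qc, Cd5l, Cd68, Marco and Vsig4. They were also present in 2 of 4 leukocyte and class II, 1 of 5 endothelial and 2 of 4 stellate windows. Of all 32851 windows 28.3% had them, and a match is a description of the letters only.

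The 34 genes together took 0.0437% to 0.0768% of all counts in FH. Between 28 and 32 of them had a count in each FH library, 18 to 23 at 3 h, and 7 to 11 in dediHeps. After thinning to the smallest total, the numbers expected were 27.4 to 31.1 in FH and 4.27 to 6.33 in dediHeps. As a check of the label, the 12 genes of a hepatocyte list summed to 21538 to 25624 counts per FH library, against 314 to 670 in dediHep-SOs and 1050 to 1399 in FIPC-SOs.

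**Figure D1:**
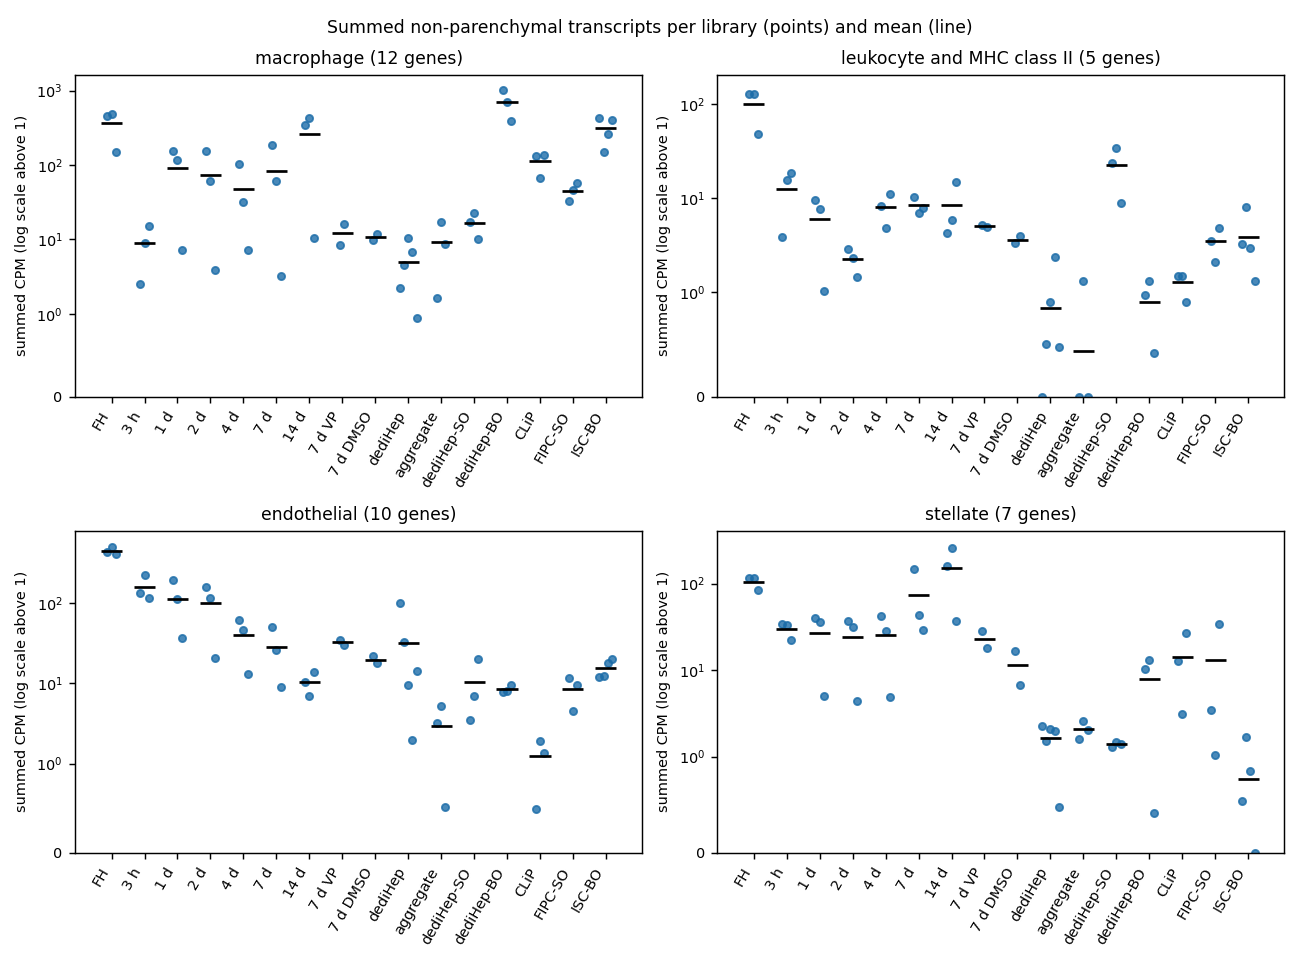
Summed CPM (scaled with TMM factors, logarithmic above 1 CPM) of the 4 gene classes in each of the 49 libraries, with the 16 conditions on the horizontal axis, points for libraries and lines for means. Sums of macrophage genes were 150 to 477 CPM in FH and 0.947 to 10.6 CPM in dediHeps, and the high sums in dediHep-BOs and ISC-BOs were almost wholly Lyz2.

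Macrophage genes were abundant in FH, nearly absent at 3 h, and then present or absent according to the replicate. Their summed counts were 388, 349 and 145 in FH and 2, 8 and 13 at 3 h. From 1 to 14 days, replicates 1 and 2 held 72 to 966 counts (31.6 to 426 CPM, 10 libraries), whereas replicate 3 held 8 to 14 counts (3.26 to 10.3 CPM, 5 libraries) without any overlap. The description labels number the FH and the 1- to 14-day libraries 2, 3 and 4 and the 3 h libraries 4, 5 and 6, and the labels do not say what the number marks. Replicate 3 of FH, which also bears number 4, held 145 counts, and the 3 h library with number 4 held 2. The 4 verteporfin and DMSO libraries, numbered 5 and 6, held 13 to 26 counts. The numbers 5 and 6 occur in no FH library, so the step from FH to 3 h and the difference between numbers cannot be told apart for them.

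**Figure D2:**
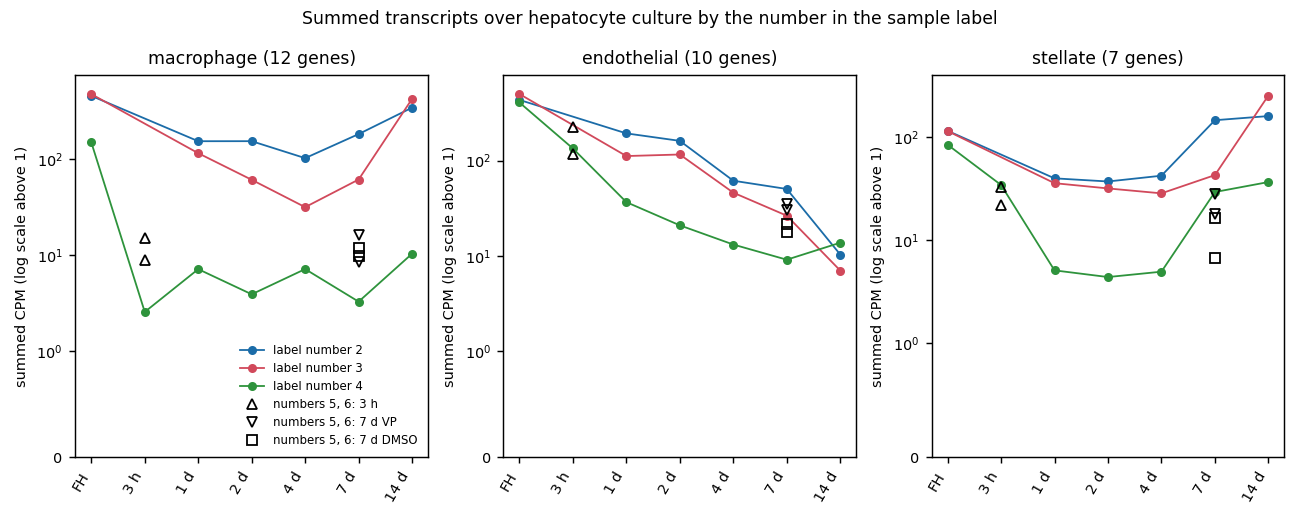
Summed CPM (logarithmic above 1 CPM) of macrophage, endothelial and stellate genes against culture time (categories, not to scale), with lines joining libraries of the same number in the description label and open symbols for numbers 5 and 6. Macrophage sums of number 4 lay at or below 10.3 CPM at every time from 3 h on, below each library of numbers 2 and 3.

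At 3 h, 7 of the 10 macrophage genes that passed the filter on low counts were lower than in FH in the quasi-likelihood test of edgeR (termed called where the FDR was below 0.1 and the log2 fold change beyond 2 in either direction), and none was higher. Among all members 11 of 26 tested were called lower, against a background of 3.85% of all 12443 genes. The median log2 fold change of the tested members was -2.37, and that of all genes was -0.07. Vsig4, the complement receptor of Kupffer cells, had 64, 27 and 10 counts in FH and 0 in every 3 h library. That is at least a 33.7-fold fall with 3 counts over the 3 h group as the floor, and its adjusted p was 0.0335. Cd5l, a secreted inhibitor of macrophage apoptosis, went from 19, 50 and 20 counts to 0, 0 and 0, at least 29.7-fold lower with an adjusted p of 0.0205. Clec4f, the galactose-binding lectin that marks Kupffer cells, fell from 57, 52 and 22 counts to 1, 1 and 0 (log2 fold change -6.00 ± 1.66 SE, adjusted p = 0.0232). C1qb went from 33, 54 and 34 counts to 0, 1 and 0 and C1qc from 88, 46 and 18 to 0, 3 and 1, with adjusted p of 0.0505 and 0.0633. The groups did not overlap for these 5 genes, which were picked from those called. The share of all genes without overlap was not determined. Csf1r, the receptor for colony-stimulating factor 1, was called with 23, 43 and 11 counts against 0, 1 and 4, and Lyz2 was called with 67, 45 and 19 against 1, 0 and 3. Adgre1, the F4/80 antigen, had 18, 9 and 4 counts in FH and 0 at 3 h but did not reach the filter. The number of members called was 5 without FH replicate 2, 6 without 3 h replicate 2 and 7 without 3 h replicate 1 or 3, and 7 of the 11 calls were lost when some library was left out. Clec4f, Cd5l, H2-Aa and H2-Ab1 kept theirs in all 6 of these fits. Under a block on the description number, in which FH and the 3 h group share number 4 alone, 1 member was called at 3 h.

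Between 1 and 14 days the macrophage genes did not move as 1 group. Timd4, a phosphatidylserine receptor of long-lived resident macrophages, had 7, 1 and 2 counts in FH, 4, 0 and 0 at 1 day and 0 in every later library of hepatocyte culture. Adgre1 averaged 12.6 ± 8.56 CPM (SD, n = 3) in FH and 1.34 ± 1.44 at 14 days, where its counts were 8, 2 and 0. Marco, a scavenger receptor, took the opposite course, with 7, 11 and 0 counts in FH, 53, 27 and 0 at 2 days and 122, 71 and 0 at 14 days. Lyz2 also ended high in replicates 1 and 2, with 281, 211 and 4 counts at 14 days. The share of macrophage counts taken by Marco was 2.04% in FH and 11.3% at 14 days, and that of Lyz2 was 14.9% and 29.1%. The share of Clec4f went from 14.9% to 4.64%. These shares are over summed counts and describe a mixture that replicates 1 and 2 dominate. C1qb stood at 64, 55 and 2 counts at 1 day, 24, 6 and 0 at 4 days, 160, 5 and 0 at 7 days and 218, 101 and 0 at 14 days. C1qa, the lowest of the C1q chains, was 3, 9 and 5 in FH and 25, 24 and 0 at 14 days.

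Against FH, 3 macrophage genes (Clec4f, Cd5l and Csf1r) were called lower at 1 day, 4 at 2 days, 7 at 4 days and 4 at 7 days in the same edgeR fit. Many of these calls were lost when some library was left out. Those lost were Clec4f and Csf1r at 1 day and Cd5l and C1qb at 2 days. At 4 days they were Cd5l, Csf1r, C1qb, C1qc, Vsig4 and Lyz2, and at 7 days Clec4f, Cd5l, Csf1r and Vsig4. At 14 days none of the 10 tested was called by edgeR, 0 of them had an unadjusted p under 0.05, and DESeq2 called 1. With replicate 3 so far from replicates 1 and 2, SEs of the log2 fold changes of C1qb and Marco at 14 days were 1.21 and 1.42, and no statement of equal levels follows. In replicates 1 and 2 alone, an alternative chosen after the data were seen, 2 macrophage genes were called lower at 14 days. Cd68, a lysosomal glycoprotein that is not limited to macrophages, was called higher at 1 day, from 2, 2 and 0 counts to 25, 25 and 8 (log2 fold change 2.39 ± 0.86 SE, adjusted p = 0.0378). Together with Csf1r, which had 1, 1, 2, 4 and 1 counts, it was also counted in replicate 3 at every time from 1 day on, with 8, 5, 10, 3 and 1 counts. The call of Cd68 was lost without FH replicate 3 (adjusted p = 0.15) and without 1-day replicate 2 (0.11). Cd68 passed the filter through culture libraries alone, so higher was the only call possible for it.

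Counted over all 34 members, 13 were called lower and 2 higher at 1 day, where the background was 10.9% of genes lower and 6.57% higher. At 2 days 14 were lower and 1 higher (background 12.1% and 9.21%), at 4 days 18 and 1 (12.4% and 11.4%), at 7 days 15 and 1 (12.8% and 13.2%) and at 14 days 13 and 1 (15.3% and 14.1%), each of 26 tested. These 6 comparisons share the FH libraries. The 8 members not tested, which were too low for the filter, were Timd4, Adgre1, Cd3e, Oit3, Des, Pdgfrb, Lum and Ptprc, the CD45 antigen of all leukocytes, which had at most 6 counts in a library.

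Other cell types moved in the same comparisons. Of the 12 hepatocyte genes, 0 were called lower at 3 h, 4 at 1 day, 7 at 2 days, 10 at 4 days, 11 at 7 days and 10 at 14 days. Their median log2 fold change was 0.22 at 3 h, -1.82 at 1 day, -3.02 at 4 days, -3.41 at 7 days and -4.33 at 14 days, where that of the tested members was -2.37, -2.37, -2.88, -2.82 and -2.58. From 4 days on the fall of the members was thus no larger by median than that of the hepatocyte genes. Of 7 cholangiocyte genes tested, 2 were called higher at 3 h and 5 at 14 days, and 1 was called lower at both. Of all 12443 genes, 381 were called higher at 3 h and 1759 at 14 days. Of 5 mesothelial genes 1 was tested, and it was called higher from 2 days on. Of 16 blood cell genes 2 were tested, and 0 were called at 3 h and 1 day and 1 was called lower from 2 days on. Of the Paneth genes Lyz1 alone was tested, and it was called lower from 1 to 7 days. In dediHeps against FH, 10 of 12 hepatocyte genes and the 1 blood cell gene tested were called lower, and 4 of 7 cholangiocyte and both tested mesothelial genes higher. Of all 11276 genes tested there, 1421 were lower and 1480 higher. The part of these cell types in the values of the members was not tested.

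Among 22 other macrophage genes, 16 were tested in the time course, and 9 were called lower and 1 higher at 3 h and 5 lower and 1 higher at 14 days. Of all 12443 genes, 479 were lower and 381 higher at 3 h, and 1909 and 1759 at 14 days. Cd14, the lipopolysaccharide co-receptor, which hepatocytes can also make, was the gene that rose, by 7.46 on the log2 scale at 3 h (adjusted p = 4.63e-05).

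MHC class II transcripts were called lower at all times of culture, and H2-Aa and Cd74 were near 0 from 2 days on, whereas H2-Ab1 kept counts in every library from 1 day on. H2-Aa, an alpha chain of MHC class II, had 52, 38 and 16 counts in FH, 0, 4 and 5 at 3 h, 3, 2 and 0 at 1 day and 0, 0 and 0 at 2, 7 and 14 days. At 14 days the fall was at least 74.6-fold with an adjusted p of 2.01e-05 in edgeR. Cd74, the invariant chain that escorts class II molecules, went from 13, 13 and 11 counts to 1, 2 and 4 at 3 h and to 1, 0 and 1 at 14 days (log2 fold change -5.07 ± 1.01 SE, adjusted p = 0.000427). H2-Ab1, the class II beta chain, fell from 37, 40 and 17 counts to 0, 8 and 4 at 3 h and had 5, 6 and 3 counts at 2 days, 18, 11 and 20 at 4 days and 25, 13 and 24 at 7 days. At 7 days it was called lower than in FH (log2 fold change -2.37 ± 0.57 SE, adjusted p = 0.00196), and replicate 3 did not stand apart. Each of these 3 genes was called lower at all 6 times. Of 11 further genes of antigen presentation by class II, H2-Eb1 alone passed the filter, and it was called lower at all 6 times (log2 fold change -3.33 at 3 h, adjusted p = 0.00522). It had 16 to 28 counts in FH and 0 to 11 at 7 days. H2-Aa, Cd74 and H2-Eb1 passed the filter through their FH counts alone. Lower was thus the only call possible for them, and the direction of these calls was fixed.

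Ptprc had 6, 3 and 2 counts in FH, 2, 0 and 3 at 3 h and 2, 2 and 6 at 14 days, which is too few to follow. For Cd3e the count of 0 in 3 FH libraries allows up to 1.18 CPM with 3 counts over the group. None of 20 further lymphoid genes was tested in the time course, and 12 of them had no count in FH.

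Endothelial genes were low in all 3 replicates at 14 days but took different courses. Clec4g, Kdr, Ptprb and Tie1 were called lower at every time from 1 day on, whereas Lyve1, Cdh5 and Pecam1 had their highest counts at 1 or 2 days. Of 9 tested, 1 was called lower at 3 h, 6 at 1 day, 5 at 2 days, 6 at 4 and at 7 days and 8 at 14 days. Of all genes, 3.85% were called lower at 3 h, 10.9% at 1 day and 12.1% at 2 days. That share was 12.4% at 4 days, 12.8% at 7 days and 15.3% at 14 days. Summed endothelial counts were 366, 364 and 393 in FH, 105, 204 and 101 at 3 h, 444, 221 and 72 at 1 day and 29, 12 and 12 at 14 days. FH replicates were thus alike, and replicate 3 was the lowest from 1 to 7 days, but not in CPM at 14 days.

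Clec4g, a C-type lectin of sinusoidal endothelium and the most abundant endothelial member, had 80, 173 and 173 counts in FH, 33, 59 and 22 at 3 h, 12, 9 and 5 at 1 day and 2, 2 and 0 at 14 days. Its log2 fold change was -1.97 ± 0.83 SE at 3 h (adjusted p = 0.123), -5.44 ± 0.99 at 1 day (0.000181) and -7.77 ± 1.23 at 14 days (1.92e-05). Kdr, the main receptor for vascular endothelial growth factor, fell from 39, 15 and 35 counts to 4, 2 and 0 at 1 day (-5.17 ± 0.92, adjusted p = 0.000144). Ptprb, the vascular endothelial protein tyrosine phosphatase, had 82, 101 and 71 counts in FH, 17, 27 and 6 at 3 h and 35, 4 and 2 at 1 day. It was the 1 endothelial gene called at 3 h (-2.42 ± 0.81, adjusted p = 0.0551), and FH and 3 h did not overlap. This call was lost without FH replicate 2 and without 3 h replicate 1 or 3. Tie1, an orphan receptor of the angiopoietin system, had 10, 15 and 26 counts in FH, 8, 20 and 7 at 3 h and 12, 8 and 4 at 1 day, and was called from 1 day on. Fcgr2b, an inhibitory Fc receptor of sinusoidal endothelium that clears immune complexes, was uneven in FH (98, 13 and 22) and had 22, 40 and 30 counts at 3 h, 18, 38 and 2 at 4 days and 3, 0 and 1 at 14 days. It was called lower from 1 day on, but not at 2, 4 and 7 days once FH replicate 1 was left out (log2 fold changes -1.60, -1.32 and -1.92). Oit3, a liver endothelial secreted protein, had at most 14 counts in a library and was not tested.

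Lyve1, the hyaluronan receptor of lymphatic and sinusoidal endothelium, took the other course. It had 7, 1 and 3 counts in FH, 6, 12 and 11 at 3 h, 194, 86 and 24 at 1 day, 102, 122 and 13 at 2 days, 28, 16 and 4 at 4 days and 3, 2 and 1 at 14 days. In CPM, all 1-day libraries (12.2 to 84.1) lay above FH (1.37 to 8.26), and at 2 days replicate 3 (6.33) did not. Its log2 fold change was 3.34 ± 0.80 SE at 1 day (adjusted p = 0.00257) and 2.81 ± 0.80 at 2 days (0.0081), and it was the endothelial gene called higher. Cdh5, the adherens junction cadherin of endothelium, had 18, 20 and 20 counts in FH, 5, 6 and 6 at 3 h, 106, 57 and 24 at 1 day, 126, 43 and 8 at 2 days and 3, 2 and 0 at 14 days. In CPM its 1-day libraries (12.2 to 46.0) spanned those of FH (20.7 to 27.4), which were less deeply sequenced. Its log2 fold changes of 0.24 ± 0.72 at 1 day and 0.00 ± 0.72 at 2 days were not called, and at 14 days it was -4.61 ± 1.02 (adjusted p = 0.000727). Pecam1, the CD31 antigen, had 3, 3 and 9 counts in FH, 43, 30 and 7 at 1 day and 0, 0 and 2 at 14 days, and its call at 14 days (adjusted p = 0.036) was lost without FH replicate 3 and without 14-day replicate 1 or 2. Stab2, the hyaluronan scavenger receptor of sinusoids, had 15, 21 and 30 counts in FH, 26, 10 and 6 at 1 day, 42, 47 and 11 at 2 days and 2, 2 and 2 at 14 days. In CPM these were 17.7 to 31.0 in FH, 3.05 to 11.3 at 1 day and 5.35 to 18.2 at 2 days. It was called lower at 1 day (-2.07 ± 0.68), a call lost without FH replicate 2 or 3 or 1-day replicate 2 or 3 (-1.72 to -1.97). It was not called at 2 days (-0.99 ± 0.64) and was called lower again from 4 days on (at 14 days -4.40 ± 0.85, adjusted p = 0.000194). In the summed endothelial counts Lyve1 made up 0.98% in FH and 41.2% at 1 day, and Clec4g 37.9% and 3.53%.

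**Figure D3:**
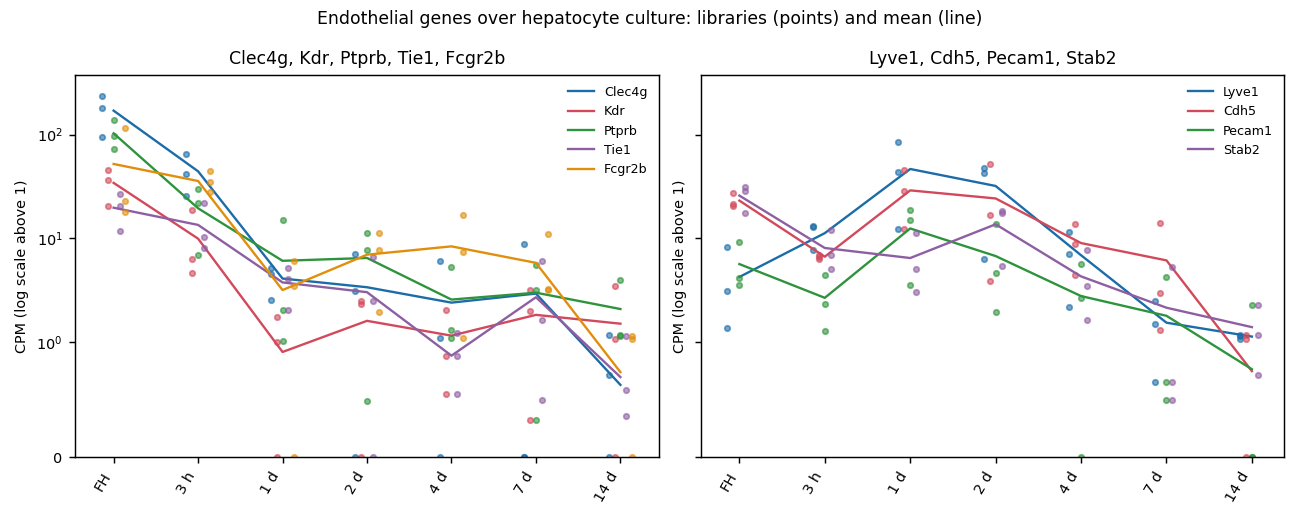
CPM (scaled with TMM factors, logarithmic above 1 CPM) of 9 endothelial genes against culture time (categories, not to scale), with points for libraries and lines for means. Mean Clec4g was 170 CPM in FH and 4.10 at 1 day, while mean Lyve1 was 4.24 CPM in FH and 46.6 at 1 day.

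Of 23 other endothelial genes, 16 were tested in the time course. At 1 day 6 of them were called lower and 0 higher, and at 14 days 10 lower and 1 higher. The background over all genes was 10.9% lower and 6.57% higher at 1 day, and 15.3% and 14.1% at 14 days. Ehd3, an endocytic protein abundant in sinusoidal endothelium, fell by 5.41 on the log2 scale at 1 day (adjusted p = 2.1e-05). Aqp1, a water channel, fell by 5.84 (4.69e-05), and Dnase1l3, a secreted nuclease, fell by 6.42 (8.23e-05). The gene higher at 14 days was Flt4, the receptor for lymphatic growth factors, with a log2 fold change of 3.41 (adjusted p = 4.33e-06).

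Of the 4 stellate genes tested, Dcn and Reln fell and Acta2 rose. Dcn, the proteoglycan decorin, had 73, 55 and 46 counts in FH, 20, 15 and 10 at 3 h, 25, 23 and 0 at 1 day and 13, 18 and 1 at 14 days. It was called lower from 1 day on, with a log2 fold change of -3.28 ± 0.80 SE at 1 day (adjusted p = 0.0029) and -3.60 ± 0.83 at 14 days (0.00114). Reln, the secreted glycoprotein reelin of quiescent stellate cells, had 13, 8 and 10 counts in FH, 9, 8 and 7 at 1 day, 3, 3 and 2 at 2 days and 0, 0 and 5 at 14 days. It was called lower from 2 days on (-3.43 ± 0.99, adjusted p = 0.00889), and its call at 14 days was lost without 14-day replicate 1.

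Acta2, the smooth muscle actin of activated stellate cells, was at 2, 0 and 0 counts in FH. It had 12, 20 and 0 counts at 1 day, 57, 42 and 6 at 4 days, 308, 55 and 82 at 7 days and 315, 257 and 24 at 14 days. The log2 fold change over FH was 4.09 ± 1.42 at 4 days (adjusted p = 0.0245), 5.93 ± 1.31 at 7 days (0.000852) and 6.80 ± 1.29 at 14 days (0.000162), and every library of those 3 times lay above FH. The share of all genes without overlap was not determined. Acta2 passed the filter through culture libraries alone, so higher was the only call possible against FH. Replicate 3 was again the lowest in count at 4 and 14 days, with 6 and 24 counts. Bgn, the proteoglycan biglycan, had 8, 17 and 19 counts in FH, 74, 8 and 2 at 7 days and 98, 142 and 0 at 14 days, and was not called (1.16 ± 1.12 at 14 days). Des, the intermediate filament desmin, had 1, 2 and 0 counts in FH and 22, 11 and 1 at 14 days, too few for the filter. Pdgfrb, the receptor for platelet-derived growth factor B, stayed at or below 7 counts in every library, and Lum, the proteoglycan lumican, at or below 7 in all hepatocyte cultures. Vim, the mesenchymal intermediate filament, which hepatocytes also came to express in these cultures, is not a member. It had 0 to 3 counts in FH and 726 to 1526 at 14 days, and its counts in the 3 replicates at 7 days were 1351 to 1483, with no replicate standing apart.

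**Figure D4:**
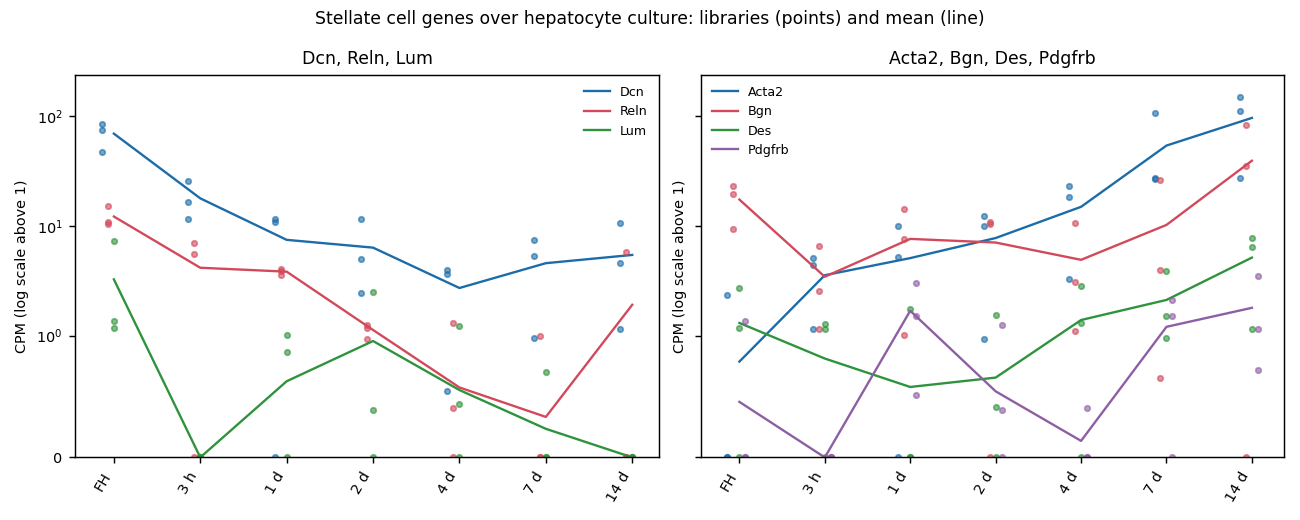
CPM (scaled with TMM factors, logarithmic above 1 CPM) of the 7 stellate genes against culture time (categories, not to scale), with points for libraries and lines for means. Mean Acta2 was 96.9 CPM at 14 days with an SD of 63.0 (n = 3), and mean Dcn was 69.6 CPM in FH and 5.45 at 14 days.

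Of 26 other stellate genes, 15 were tested in the time course, with 8 called lower and 0 higher at 1 day and 6 lower and 4 higher at 14 days. Of all genes, 10.9% were lower and 6.57% higher at 1 day, and 15.3% and 14.1% at 14 days. Colec11, a collectin, fell by 6.51 on the log2 scale at 1 day (adjusted p = 4.71e-06), and Sod3, the extracellular superoxide dismutase, by 5.88 (6.19e-06). Col1a1, the main chain of type I collagen, was higher at 14 days with a log2 fold change of 6.36 (adjusted p = 9.87e-05).

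In dediHeps, the passaged monolayer, the non-parenchymal genes were at or near 0. Of 20 members tested against FH, 19 were called lower and none higher, where 12.6% of the 11276 genes tested were lower. The median log2 fold change of the members was -8.60, and that of all genes was 0.08. C1qb, C1qc, Cd5l, Vsig4, Marco, Adgre1, H2-Aa, H2-Ab1, Stab2, Kdr, Cdh5, Clec4g and Fcgr2b had 0 counts in all 5 libraries. Those of them that were tested passed the filter through their FH counts alone. Lower was thus the only call possible for them, and the number called and the median above rest partly on this. Relative to FH, Clec4g was at least 654-fold lower (adjusted p = 2.26e-05), C1qc at least 233-fold (0.0002) and H2-Ab1 at least 144-fold (0.000137). Outside the hepatocyte time course and its verteporfin and DMSO arms, the 9 macrophage genes other than Csf1r, Cd68 and Lyz2 had 7 counts in total over 24 libraries.

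Ptprb was the exception among the endothelial genes. Its counts in dediHeps were 174, 63, 25, 1 and 25, overlapping the 82, 101 and 71 of FH, while no count of Clec4g, Kdr, Cdh5, Stab2 or Fcgr2b was found beside them. The log2 fold change against FH was -1.89 ± 0.98 SE (adjusted p = 0.159). Csf1r remained at 3, 7, 32, 16 and 1 counts and was called lower than in FH (-2.95 ± 0.74, adjusted p = 0.00892).

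Against the 14-day cultures, only 3 members passed the filter on low counts. Acta2 was called lower, with 2, 1, 6, 4 and 1 counts against 315, 257 and 24 (log2 fold change -6.34 ± 0.58 SE, adjusted p = 0.000202), where 2.09% of all genes were lower. It passed the filter through the 14-day libraries alone, so lower was the only call possible for it. Ptprb had a log2 fold change of 3.62 ± 1.32 (adjusted p = 0.103) and Csf1r of -1.30 ± 0.78 (0.293). Without the filter 18 members were called, 12 by DESeq2, 11 by edgeR without 14-day replicate 3 and 2 without dediHep replicate 4. Over summed counts, C1qb had 0 in dediHeps and 319 at 14 days, at least a 232-fold difference, and Marco 0 and 193, at least 140-fold. The 14-day sums came from replicates 1 and 2 (218 and 101 for C1qb, 122 and 71 for Marco). Replicate 3 had 0 of each, as in dediHeps, and neither gene passed the filter.

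In CLiPs, 18 of 20 members tested were called lower than in FH, where 11.4% of genes were lower, and none was called higher. The comparison uses the same FH libraries as that of dediHeps. Clec4g, Clec4f, C1qc, Cd5l, Vsig4, H2-Aa and Fcgr2b had 0 counts. Those of them that were tested passed the filter through FH alone, so lower was the only call possible for them. Csf1r was the exception, with 248, 302 and 303 counts against 23, 43 and 11 in FH, and the groups did not overlap. Its mean was 108 ± 38.9 CPM in CLiPs (SD, n = 3) and 32.4 ± 24.2 in FH. The log2 fold change of 1.79 ± 0.62 SE had an adjusted p of 0.0582 but stayed under the threshold of 2, which it passed without FH replicate 2 (2.53) or CLiP replicate 2 (2.06). Beside it, 8 of the other 11 macrophage members, among them C1qa, Vsig4 and Marco, had no count in CLiPs, C1qb and Lyz2 had 1 count each and Cd68 had 19, 14 and 2. Bgn (7, 2 and 23) and Dcn (10, 4 and 30) kept some counts in CLiPs, most of them in replicate 3.

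In aggregates, none of the 2 members tested against monolayer dediHeps, Csf1r and Ptprb, was called by edgeR, where 9.51% of all genes were. Ptprb had 4, 12 and 0 counts in aggregates (log2 fold change -3.34 ± 1.40 SE, adjusted p = 0.124 with the unadjusted p under 0.05), and Csf1r had 0, 38 and 13 (0.82 ± 0.93, adjusted p = 0.564). DESeq2 also called 0. Aggregates and dediHeps share culture names, and with these as a block Ptprb was called (-3.57), as it was without dediHep replicate 4.

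In dediHep-SOs, 2 of the 4 members tested were called higher than in dediHeps, where 4.12% of all genes were. Cd74 rose from 0, 0, 3, 5 and 0 counts to 72, 66 and 19 (log2 fold change 4.94 ± 0.84 SE, adjusted p = 0.00314). Cd68 rose from 1, 1, 2, 1 and 1 to 25, 17 and 10 (3.65 ± 0.53, adjusted p = 0.00124). The groups did not overlap for either gene, both picked because they were called, and no share over all genes was determined. Cd74 and Cd68 passed the filter through dediHep-SOs alone, so higher was the only call possible for them. H2-Aa, which Cd74 escorts, had 0 counts in both, H2-Ab1 had 2, 3 and 0 in dediHep-SOs, and C1qa, C1qb, C1qc, Vsig4 and Clec4f had 0. Csf1r, with 29, 28 and 12 counts, was not called (1.08 ± 0.70, adjusted p = 0.366). The 3 genes tested of the blood cell list, Ltf, Pf4 and Ppbp, were called higher in dediHep-SOs as well, whereas Ptprc had 0 counts there, and the part of blood cells in the Cd74 and Cd68 counts was not tested.

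Against FIPC-SOs, the spherical organoids of the fetal gut, 3 of the 4 members tested were called in dediHep-SOs, where 8.91% of all genes were. Cd74 had 0 counts in all 3 FIPC-SOs and was at least 61.3-fold higher in dediHep-SOs (adjusted p = 0.00149). Csf1r was higher as well, with 29, 28 and 12 counts against 4, 1 and 0 (log2 fold change 3.86 ± 0.80 SE, adjusted p = 0.0103). Lyz2 was lower, with 0 counts in dediHep-SOs against 72, 131 and 167, at least 105-fold (adjusted p = 0.00027). Lyz1 had 0, 0 and 7 counts in dediHep-SOs and 958, 852 and 1009 in FIPC-SOs, and 6 of 7 Paneth cell genes tested were called lower. The part of Lyz1 reads in the Lyz2 difference was not tested. Cd74 and Lyz2 each passed the filter through the group with counts alone, and Csf1r through dediHep-SOs alone. The direction of these calls was thus fixed. Cd68 had 7, 1 and 9 counts in FIPC-SOs (log2 fold change 1.76 ± 0.63, adjusted p = 0.09). FIPC-SO replicate 3 stood apart with 44 counts of Bgn, 36 of Lum and 12 of Dcn, where replicates 1 and 2 had at most 4 of each.

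In budding organoids Lyz2 was the member with the highest counts of all, 2105, 1574 and 918 in dediHep-BOs and 798, 355, 623 and 921 in ISC-BOs. Lyz1 reached 3740, 3738 and 3056 counts and 3180, 2756, 3066 and 3116 in the same libraries, near the UMI ceiling. Of 7 Paneth cell genes tested between these groups, 2 were called lower and 1 higher in dediHep-BOs. C1qa, C1qb, C1qc, Vsig4 and Clec4f had at most 3 counts in any of these 7 libraries, and how much of the Lyz2 count stems from Lyz1 reads was not tested. In FH the order was the reverse, with 67, 45 and 19 counts of Lyz2 and 20, 5 and 2 of Lyz1. Between the 2 kinds of budding organoids none of the 2 members tested, Lyz2 and Lyve1, was called by edgeR, where 3.05% of all genes were. Both had an unadjusted p under 0.05 in that fit. The log2 fold change of Lyz2 was 1.20 ± 0.38 SE (adjusted p = 0.0901), under the threshold of 2, and that of Lyve1 was -0.98 ± 0.39 (0.17). DESeq2 called 1 member, H2-Ab1. Lyve1 had 16, 10 and 19 counts in dediHep-BOs and 22, 20, 35 and 43 in ISC-BOs, while Clec4g, Cdh5 and Pecam1 had 0 in all 7.

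**Figure D5:**
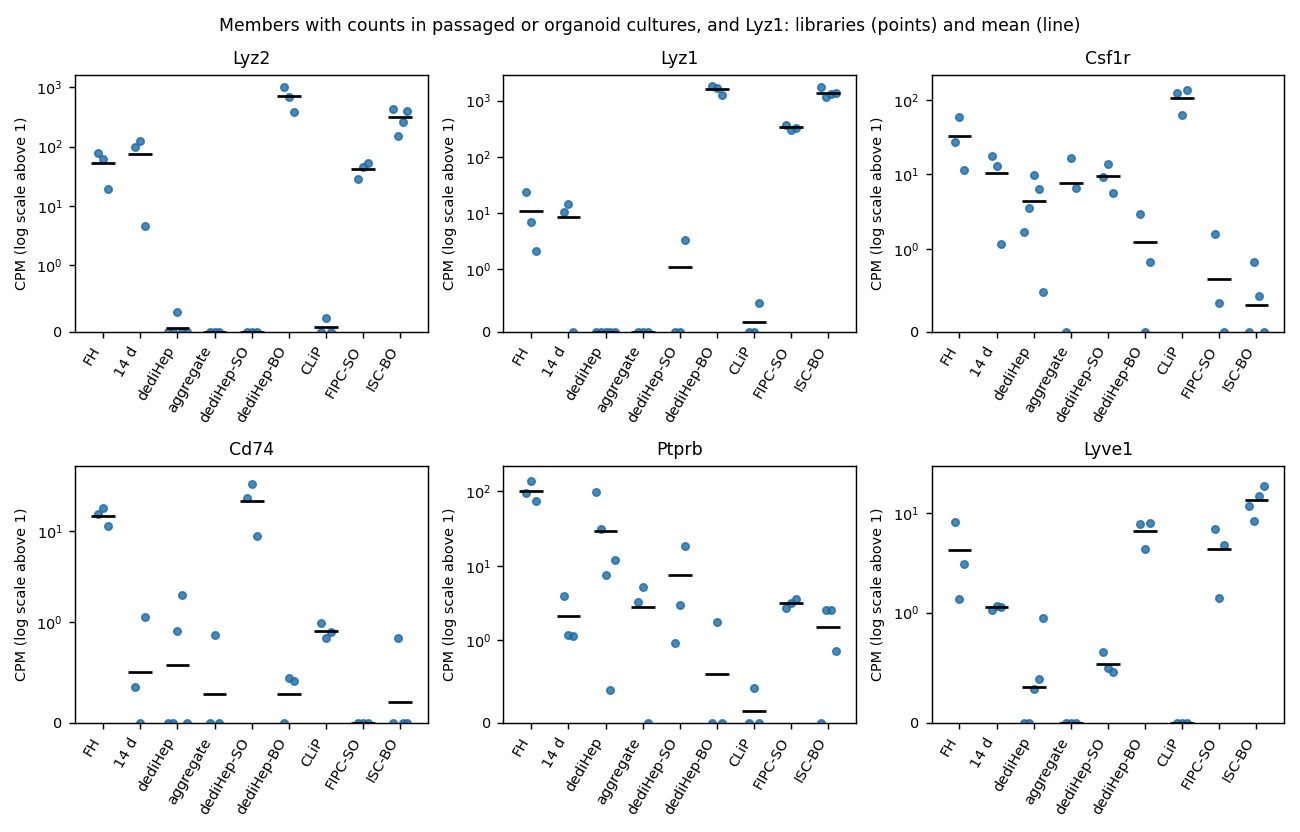
CPM (scaled with TMM factors, logarithmic above 1 CPM) of 5 members and of Lyz1 in FH, 14-day cultures and the 7 conditions outside the time course, with points for libraries and lines for means. Csf1r averaged 108 CPM in CLiPs, Cd74 21.6 CPM in dediHep-SOs and Lyz2 700 CPM in dediHep-BOs.

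Verteporfin was compared with DMSO at 7 days, in libraries with few non-parenchymal counts. None of the 2 members tested was called by edgeR or DESeq2, 0 had an unadjusted p under 0.05, and 0.269% of all genes were called. Acta2 had 30 and 24 counts with verteporfin and 20 and 8 with DMSO (log2 fold change 1.01 ± 0.50 SE, adjusted p = 0.592), and Fcgr2b had 13 and 12 against 9 and 10 (0.48 ± 0.48, 0.806). Macrophage sums of 13 and 26 counts against 15 and 21 allow no statement on those cells.

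Over the means of the 16 conditions, the genes outside the list that were most like each class sum were found among 14344 genes with at least 5 CPM in a condition. Macrophage sums were most like Fam49a (Pearson r = 0.86) and Ctss, cathepsin S of phagocytes (0.83). Leukocyte and class II sums were most like Cyp26b1, a retinoic acid hydroxylase (0.84), and then like Aif1, a macrophage calcium-binding protein (0.84), and H2-Eb1 (0.83). Endothelial sums were most like Etfbkmt (0.94) and Gpr182, an atypical chemokine receptor of sinusoidal endothelium (0.91). Stellate sums were most like Npr2 (0.91) and Arl5a (0.89). These r values describe 16 conditions that share libraries, depth and a general fall from FH, and hepatocyte genes such as Mup16 (0.91 with the endothelial sum) scored as high.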

How the data were processed

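CEL-seq2 measures 3′ ends of polyadenylated transcripts. The authors deposited 1 table of UMI counts per Ensembl gene for 49 libraries, not normalized. The submitters' processing notes name bcl2fastq 2.20, Bowtie2 2.3.1, HTSeq 0.6.0 and GRCm38, and the study names the celseq2 pipeline. All columns were mapped to groups by their labels, and 0 were left out. The members and the lists were chosen with earlier results of these data known.

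Counts were tested with edgeR 4.0.16 in R 4.3.3 (quasi-likelihood F-test, TMM, filterByExpr with a minimum count of 10 and total of 15, Benjamini-Hochberg adjustment over all genes tested), calling genes with FDR below 0.1 and a log2 fold change beyond 2 in either direction, as in the study. FH and the 6 culture times entered a single fit, and the other comparisons were fitted on their own 2 groups. The SE of a log2 fold change is its size divided by the root of F. The scripts were tested on simulated data. All 34 members are described. Of other lists, counts of calls are given for the comparisons described, with at most 3 called genes of the smallest p from the macrophage, endothelial and stellate lists, and Lyz1, Alb and Vim serve as references. Alternatives were RLE, DESeq2 1.42.0, no filter, a UMI correction, all 49 libraries, a replicate block and leaving out each library. Positions are from GENCODE M21. Same-numbered libraries of the time course correlated at -0.64 to 0.65 in their deviations from group means, and differently numbered ones at -0.68 to 0.63. The numbers were therefore not taken as pairs in the main fit. Macrophage sums did differ by number, and a block on the number was run as an alternative. Aggregates and dediHeps share culture names in the labels (0.19 to 0.36), as do dediHep-SOs and dediHeps (-0.55 to 0.07).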

Additional observations from a re-analysis of the deposited data

Results flagged for a closer look

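Each of 15 sets of levels from groups of 4 or 5 libraries (dediHeps and ISC-BOs, members and class sums with at least 10 counts) was examined with Dixon's test for a library far from the others, and 0 were past the critical value. Groups of 2 and 3 libraries, which include every time point, were too small for this test.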

How the results depend on the processing

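In the time course the number of members called stayed within 1.5 times of the reported one under RLE, DESeq2, no filter on low counts, the UMI correction, the replicate block by title number and replicates 1 and 2 alone. A block on the number in the description label, chosen after the data were seen, gave 1 member called at 3 h in place of 11. The 3 h group shares a single number with the other groups, so that fit rests on 1 library of it. The title-number block gave 16 at 3 h, 21 at 1 day, 20 at 2 days, 21 at 4 and 7 days and 17 at 14 days, and it changed no other count of dediHeps, CLiPs, dediHep-SOs or verteporfin. The block on culture names gave 1 member called in aggregates in place of 0. For dediHeps against 14-day cultures DESeq2 called 12 members, and no filter or a fit of all 49 libraries 18, in place of 1. In aggregates no filter and all 49 libraries each gave 2, and all 49 libraries gave 4 for dediHep-SOs against dediHeps. Against FIPC-SOs DESeq2 and all 49 libraries gave 5 and no filter 9, in place of 3. Between budding organoids DESeq2 and all 49 libraries gave 1 and no filter 3, in place of 0.

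Leaving out 1 library at a time, the calls ranged from 5 to 12 at 3 h, 13 to 16 at 1 day, 14 to 19 at 2 days, 14 to 21 at 4 days, 14 to 23 at 7 days, 13 to 17 at 14 days, 19 to 21 for dediHeps and 18 to 20 for CLiPs against FH, 1 to 11 for dediHeps against 14 days, 0 to 1 for aggregates, 2 for dediHep-SOs, 3 to 4 against FIPC-SOs and 0 for budding organoids and verteporfin. No fold change of a called member reversed its sign under any alternative. With CPM of the library total in place of TMM-scaled CPM, endothelial sums in FH were 284 in place of 445 and at 3 h 94.6 in place of 159, since the factors of these groups were lowest. Depth limits the members with few counts, such as Ptprc, Oit3, Pdgfrb and Timd4.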
